A study of Mus musculus with 33 samples.

Results

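The 10 genes described here are imprinted genes with known roles in prenatal growth: Igf2, H19, Dlk1, Meg3, Peg3, Mest, Cdkn1c, Plagl1, Grb10 and Igf2r. They were taken by gene name from an RNA-seq expression table of 25239 genes, in which each name had 1 entry. All 10 were among the 12546 genes that reached 1 RPKM (a read count divided by gene length and by sequencing depth) in at least 2 of 13 libraries. The liver values of Igf2, H19, Dlk1, Meg3 and Peg3 lay under that level, so these 5 genes entered through their embryonic libraries.

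The series compared mouse endothelial cells with and without added RUNX1, a transcription factor, at 3 stages. The cells were sorted as CD41-CD45-Ter119-CD31+VEC+cKIT lo/+. Of 33 libraries in all, 13 were RNA-seq of polyadenylated RNA and 14 were ATAC-seq, an assay of accessible chromatin. Runx1 came from a conditional knock-in allele (CKI) that Cre activates, and controls carried the allele with no Cre named on their label.

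At E9.5 (whole embryo, strain C57BL/6J-129Sv/J x B6C3F1, superovulated mothers) the groups were Ctrl (CKI/+, 2 RNA libraries) and +1Runx1 (Cre; CKI/+, 2 libraries). At E13.5 (whole fetus, strain C57BL/6J-129Sv/J) they were Ctrl (CKI/CKI or CKI/+, 1 RNA library), +1Runx1 (Cre; CKI/+, 2 libraries) and +2Runx1 (Cre; CKI/CKI, 2 libraries). The adult liver, from mice aged 4 to 6 weeks, gave Ctrl (CKI/CKI or CKI/+, 2 libraries) and +2Runx1 (Cre; CKI/CKI, 2 libraries). Every group received tamoxifen. Pregnant females had 2 mg by injection 24 hours before harvest, and liver donors had it by gavage. For liver, no hours from tamoxifen to harvest are recorded. Cre and added Runx1 cannot be told apart, nor can stage, organ, strain, tamoxifen route and any difference in that time. The labels do not name the promoter that drives Cre, nor say whether replicates came from separate litters, so p-values measure the spread between these libraries only.

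An imprinted gene is transcribed mainly from the chromosome of 1 parent, fixed by DNA methylation laid down in the egg or sperm. Paternally expressed members such as Igf2, Dlk1, Peg3, Mest and Plagl1 mostly favour fetal growth. Maternally expressed members such as H19, Meg3, Cdkn1c, Grb10 and Igf2r mostly restrain it. Many imprinted growth genes are high in the fetus and fall together in most organs after birth. The deposited table holds 1 value per gene with both parental alleles together, so imprinting itself was not measured.

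Recovered read totals ran from 37754246 to 44540403 per library. Runx1, the added gene, lay between 0.90 and 1.53 RPKM in the 5 control libraries and between 14.9 and 78.4 RPKM in the 8 libraries with Cre, which separates Cre from no Cre and does not check the number of copies. All 10 endothelial markers examined were above 1 RPKM in every group, and their summed level was 1928 to 2062 RPKM at E9.5, 2516 to 2725 at E13.5 and 4273 to 4915 in liver. Markers of other cells also differed by stage. The summed level of 10 hepatocyte markers was 18.6 to 35.2 RPKM at E9.5, 199 to 287 at E13.5 and 130 to 141 in liver. That of 10 mesenchymal markers was 51.0 to 71.0, 98.8 to 151 and 30.8 to 34.5 RPKM. Over the same stages 8 macrophage markers summed to 1.05 to 1.93, 10.6 to 21.2 and 176 to 189 RPKM, and 8 markers of liver sinusoidal endothelium to 99.1 to 124, 330 to 637 and 11635 to 11976. The part of these markers in the stage differences below was not tested. In bulk RNA, fewer expressing cells and less RNA per cell cannot be told apart.

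Promoters of 5 members are printed because their chromatin separated the members: the first 3 had ATAC peaks in embryonic lists only, and the last 2 in embryonic and liver lists. Each runs 5′ to 3′ from 250 bases before to 50 bases after a RefSeq start (GRCm38.p6). Capitals mark the RUNX core TGTGGT or the ZFP57 motif TGCCGC, on either strand. ZFP57 is a zinc finger protein that protects methylation at imprinted regions.
Igf2, start at 142658804, chr7:142658755-142659054, minus strand: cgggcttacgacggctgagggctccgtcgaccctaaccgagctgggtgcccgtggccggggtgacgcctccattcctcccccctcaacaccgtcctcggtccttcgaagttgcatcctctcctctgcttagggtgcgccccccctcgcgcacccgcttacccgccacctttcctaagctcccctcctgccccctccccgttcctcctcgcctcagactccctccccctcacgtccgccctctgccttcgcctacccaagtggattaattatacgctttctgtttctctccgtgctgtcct
Dlk1, chr12:109452573-109452872, plus strand: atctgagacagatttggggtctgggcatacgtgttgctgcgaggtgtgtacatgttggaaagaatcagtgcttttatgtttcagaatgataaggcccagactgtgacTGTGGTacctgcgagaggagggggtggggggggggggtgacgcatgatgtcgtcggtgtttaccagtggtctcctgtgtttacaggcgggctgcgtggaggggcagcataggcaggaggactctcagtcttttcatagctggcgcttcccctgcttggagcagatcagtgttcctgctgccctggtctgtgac
Meg3, start at 109540996, chr12:109540746-109541045, plus strand: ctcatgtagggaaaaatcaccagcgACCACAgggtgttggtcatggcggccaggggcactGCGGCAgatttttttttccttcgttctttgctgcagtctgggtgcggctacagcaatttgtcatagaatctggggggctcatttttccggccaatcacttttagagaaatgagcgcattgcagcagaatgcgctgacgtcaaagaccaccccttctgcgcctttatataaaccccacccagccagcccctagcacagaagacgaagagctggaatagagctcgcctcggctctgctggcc
Mest, start at 30738050, chr6:30737800-30738099, plus strand: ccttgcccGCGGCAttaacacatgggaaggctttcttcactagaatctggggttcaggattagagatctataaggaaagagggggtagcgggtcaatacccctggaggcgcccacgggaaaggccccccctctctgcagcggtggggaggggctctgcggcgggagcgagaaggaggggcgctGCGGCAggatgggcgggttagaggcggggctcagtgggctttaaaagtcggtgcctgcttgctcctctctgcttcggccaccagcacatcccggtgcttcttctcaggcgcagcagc
Plagl1, chr10:13090582-13090881, plus strand: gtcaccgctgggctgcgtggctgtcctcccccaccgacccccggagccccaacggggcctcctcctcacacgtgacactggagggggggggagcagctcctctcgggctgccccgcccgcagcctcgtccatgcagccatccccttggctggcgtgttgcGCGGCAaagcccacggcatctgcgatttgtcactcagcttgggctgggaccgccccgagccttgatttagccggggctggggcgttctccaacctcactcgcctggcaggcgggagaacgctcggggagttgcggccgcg

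RefSeq promoters were at hand for 8 members (15 starts), and H19 and Cdkn1c are named only. The RUNX core was in the promoters of Dlk1 and of Meg3 at its first start, and 16.8% of 32851 RefSeq promoters hold it. The ZFP57 motif was in at least 1 promoter of Igf2 (at start 142661271, not printed), Meg3 (at its first start), Mest, Plagl1 and Grb10. Of all promoters, each counted singly, 11.6% hold it, and members with several starts have more chances of a match. A YY1 motif (GCCATNTT), found in 6.05% of all promoters, was in none of the 15. The observed over expected CpG ratio was 0.43 at Dlk1, 0.60 at the first start of Meg3 and 0.10 to 0.90 over the 4 starts of Igf2. It was 0.46 at Peg3, 0.59 at the Mest start printed, 0.70 at Plagl1, 0.91 at Igf2r and 0.97 at the first start of Grb10, with a median of 0.38 over all promoters. These are letters in a window and show no binding.

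MicroRNA genes lie within 4 members, Igf2, H19, Mest and Meg3 (miR-770 and miR-1906). The RNA table measures the hosts and not the mature microRNAs. Those of the 3 hosts that exceeded 200 RPKM in every embryonic library are printed from RefSeq, with the seed (bases 2 to 8) in capitals, and none of the 6 seeds is shared.
miR-483-3p (in Igf2): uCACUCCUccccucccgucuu
miR-483-5p (in Igf2): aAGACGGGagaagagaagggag
miR-675-3p (in H19): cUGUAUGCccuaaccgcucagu
miR-675-5p (in H19): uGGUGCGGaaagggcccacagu
miR-335-5p (in Mest): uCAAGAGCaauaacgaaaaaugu
miR-335-3p (in Mest): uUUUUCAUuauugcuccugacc

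Embryonic endothelial cells held most of these transcripts at high levels, and adult liver endothelial cells held far less of every one. Mest, which encodes a hydrolase-fold protein, ranked between 3 and 6 among all genes in each embryonic library. In E9.5 Ctrl cells the order of mean RPKM (± SD, n = 2) was Mest at 1799 ± 19.5, Igf2 at 404 ± 29.9, H19 at 306 ± 10.1, Cdkn1c at 297 ± 4.82 and Grb10 at 226 ± 8.23. Plagl1 at 118 ± 5.43, Peg3 at 106 ± 2.35, Igf2r at 43.7 ± 2.59, Dlk1 at 5.90 ± 0.42 and Meg3 at 3.64 ± 0.28 followed. The libraries of H19 and Cdkn1c overlapped in that order, and no other neighbours did. In Liver Ctrl cells (n = 2) Mest led at 66.2 ± 0.27 RPKM, then Grb10 at 36.6 ± 2.34, Cdkn1c at 27.1 ± 0.22, Plagl1 at 8.11 ± 1.15 and Igf2r at 2.27 ± 0.44. The other 5 were under 1 RPKM.

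**Figure D1:**
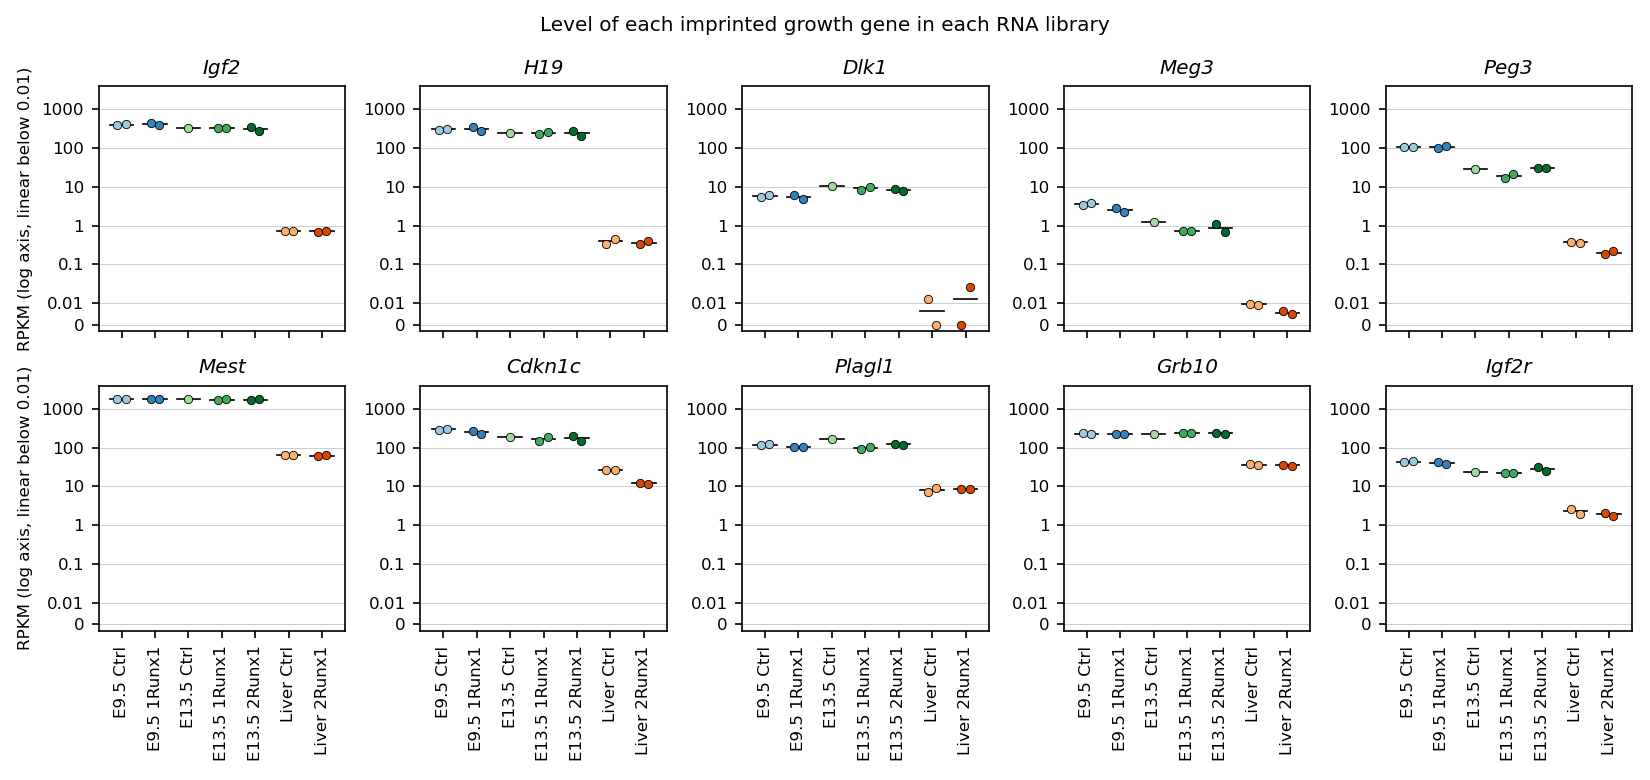
RPKM of the 10 genes in each of 13 RNA libraries (points, coloured by group; bars are group means), on a log axis that is linear below 0.01. All 4 liver libraries lie below all 9 embryonic libraries for every gene. The share of all tested genes that separate in this way was not counted. Of all tested genes, 42.7% were called lower in Liver Ctrl than in E9.5 Ctrl.

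Igf2 encodes the insulin-like growth factor II ligand, and H19 is the noncoding RNA that lies beside it (Igf2 at chr7:142650768-142666816 and H19 at chr7:142575530-142578146, both on the minus strand). A shared imprinting control region and shared enhancers serve both. Igf2 measured 383 and 426 RPKM in E9.5 Ctrl, 434 and 387 in E9.5 +1Runx1 and 334 in E13.5 Ctrl. It then measured 322 and 324 in E13.5 +1Runx1 and 341 and 281 in E13.5 +2Runx1. In liver it measured 0.724 and 0.722 in Ctrl and 0.684 and 0.740 in +2Runx1, from 105 to 111 reads per library. The liver libraries lay far below the embryonic ones and the groups with and without Runx1 overlapped at E9.5 and in liver.

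H19 followed the same course at a lower level. It measured 299 and 314 RPKM in E9.5 Ctrl, 345 and 279 in E9.5 +1Runx1, 247 in E13.5 Ctrl, 233 and 264 in E13.5 +1Runx1, and 276 and 211 in E13.5 +2Runx1. Liver libraries held 0.341 and 0.450 in Ctrl and 0.342 and 0.393 in +2Runx1, from 25 to 34 reads. The Igf2 to H19 ratio of RPKM was 1.23 to 1.39 over the 9 embryonic libraries and 1.61 to 2.12 over the 4 liver libraries, where it rests on those few H19 reads. Over all 13 libraries, H19 was the tested gene whose log2 profile was closest to that of Igf2, with a root mean square difference of 0.068 after centring. Col18a1, which encodes a basement membrane collagen, came next at 0.15.

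Igf2r encodes the receptor that clears the Igf2 ligand (chr17:12682406-12769706, minus strand). It measured 41.8 and 45.5 RPKM in E9.5 Ctrl, 42.3 and 39.0 in E9.5 +1Runx1, 24.0 in E13.5 Ctrl, 22.3 and 22.1 in E13.5 +1Runx1, and 31.1 and 24.6 in E13.5 +2Runx1. Liver held 2.58 and 1.96 in Ctrl and 2.12 and 1.69 in +2Runx1. Each stage thus stood below the one before, with no overlap between stages. Airn, the antisense noncoding RNA that starts within Igf2r, averaged 2.56 to 4.45 RPKM in the embryonic groups and 0.21 and 0.10 in the liver groups; the libraries carried no strand information, so reads of Igf2r and Airn cannot be told apart where they overlap.

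Grb10 encodes an adaptor that damps insulin and IGF receptor signalling (chr11:11930499-12037428, minus strand). It stayed between 221 and 240 RPKM in all 9 embryonic libraries. In liver it measured 38.2 and 34.9 in Ctrl and 36.7 and 33.7 in +2Runx1. Of the 10 genes it had the smallest ratio of E13.5 Ctrl to Liver Ctrl, 6.30.

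Dlk1, a transmembrane Notch-pathway ligand that restrains adipocyte differentiation, and Meg3, the noncoding RNA of the same domain (Dlk1 at chr12:109452485-109463336 and Meg3 at chr12:109540996-109571729, both on the plus strand), were the lowest members in embryos. Dlk1 measured 5.60 and 6.20 RPKM in E9.5 Ctrl, 6.33 and 4.98 in E9.5 +1Runx1, 10.3 in E13.5 Ctrl, 8.28 and 10.1 in E13.5 +1Runx1, and 8.67 and 7.90 in E13.5 +2Runx1. Its liver libraries held 2 and 0 reads in Ctrl and 0 and 4 reads in +2Runx1. All E13.5 values were above all E9.5 values.

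Meg3 moved the other way between those stages. It measured 3.45 and 3.84 RPKM in E9.5 Ctrl, 2.85 and 2.24 in E9.5 +1Runx1, 1.28 in E13.5 Ctrl, 0.729 and 0.739 in E13.5 +1Runx1, and 1.08 and 0.693 in E13.5 +2Runx1. Liver libraries held 2 to 4 reads each. The Dlk1 to Meg3 ratio was 1.61 to 2.22 at E9.5 and 8.01 to 13.7 at E13.5. Rian, the next noncoding RNA of that domain, averaged 6.86 RPKM in E9.5 Ctrl, 2.39 in E13.5 Ctrl and 0.017 in Liver Ctrl.

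Cdkn1c encodes the cyclin-dependent kinase inhibitor p57 (chr7:143458339-143461059, minus strand). It measured 293 and 300 RPKM in E9.5 Ctrl, 262 and 230 in E9.5 +1Runx1, 186 in E13.5 Ctrl, 149 and 191 in E13.5 +1Runx1, and 199 and 146 in E13.5 +2Runx1. Liver Ctrl held 27.2 and 26.9, and Liver +2Runx1 held 12.3 and 11.6. The liver groups did not overlap, with 1694 and 1727 reads in Ctrl and 858 and 728 in +2Runx1.

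Plagl1 encodes a zinc finger transcription factor known to regulate other imprinted genes (chr10:13090832-13131694, plus strand). It measured 114 and 122 RPKM in E9.5 Ctrl, 104 and 103 in E9.5 +1Runx1, 170 in E13.5 Ctrl, 94.5 and 102 in E13.5 +1Runx1, and 125 and 117 in E13.5 +2Runx1. Liver held 7.29 and 8.92 in Ctrl and 8.35 and 8.69 in +2Runx1. The single E13.5 Ctrl library was the highest of the 13.

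Peg3 encodes a large zinc finger protein (chr7:6703892-6730462, minus strand). It measured 104 and 108 RPKM in E9.5 Ctrl, 98.8 and 115 in E9.5 +1Runx1, 28.2 in E13.5 Ctrl, 17.0 and 21.9 in E13.5 +1Runx1, and 31.4 and 31.2 in E13.5 +2Runx1. Liver held 0.387 and 0.361 in Ctrl and 0.185 and 0.220 in +2Runx1. It showed the largest fall between the embryonic stages among the 10 genes in both stage comparisons. Slc38a4, an imprinted amino acid transporter gene, was among the 3 genes closest to Peg3 over all libraries (0.37), with Mogat2 (0.26) and Mdk (0.34).

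Mest (chr6:30733506-30748466, plus strand) measured 1785 and 1813 RPKM in E9.5 Ctrl, 1819 and 1824 in E9.5 +1Runx1 and 1782 in E13.5 Ctrl. It measured 1729 and 1749 in E13.5 +1Runx1 and 1664 and 1754 in E13.5 +2Runx1. Liver held 66.1 and 66.4 in Ctrl and 62.4 and 63.0 in +2Runx1. The embryonic libraries spanned a narrow range, and liver Mest still stood between rank 1383 and 1545 of all genes.

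Across the step from embryo to adult liver, all 10 genes fell. In limma on log2(RPKM + 1), fitted to all genes and libraries with Benjamini-Hochberg adjustment, 10 of 10 were lower in Liver Ctrl than in E13.5 Ctrl, where 38.6% of all tested genes were called lower and 40.6% higher (79.3% in all). The members' median difference was -3.86, beside 0.02 for all tested genes. Liver +2Runx1 against E13.5 +2Runx1 gave 10 of 10 lower (38.7% of all genes lower, 42.6% higher, 81.3% in all; members' median -3.70), and Liver Ctrl against E9.5 Ctrl gave 10 of 10 lower (42.7% of all genes lower and 42.7% higher, 85.4% in all; median -3.74). Both comparisons of Liver Ctrl share its 2 libraries. Igf2, H19, Dlk1, Meg3 and Peg3 passed the 1 RPKM filter through embryonic libraries only, which favours a lower call in liver. Mest, Cdkn1c, Plagl1, Grb10 and Igf2r passed it in liver too. The members were also chosen with earlier results of these data known, so these counts are a description.

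By size, Igf2 fell by 7.60 ± 0.11 (SE) on the log2 scale from E13.5 Ctrl to Liver Ctrl, a ratio of mean RPKM of 462. H19 fell by 7.48 ± 0.15, a ratio of 625. Both had passed the filter through embryonic libraries only, so these sizes are a description. The differences were -4.73 ± 0.05 for Mest, -4.41 ± 0.13 for Peg3 and -4.24 ± 0.10 for Plagl1. They were -2.94 ± 0.15 for Igf2r, -2.74 ± 0.17 for Cdkn1c and -2.62 ± 0.07 for Grb10. The log2(RPKM + 1) scale understates low genes: Dlk1 stood at -3.48 and Meg3 at -1.18 on it, whereas their share of library reads was 2175 times (95% interval 602 to 17972) and 183 times (92.4 to 425) higher in E13.5 Ctrl. These exact binomial intervals cover counting error only, with 2 and 8 reads in Liver Ctrl. By share of reads, Igf2 was 627 times and H19 846 times higher, so such ratios are not comparable with the RPKM ratios above.

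Between E9.5 and E13.5 the members divided. In Ctrl cells, Dlk1 and Plagl1 rose and Meg3, Peg3, Cdkn1c and Igf2r fell, 6 of 10 against 48.8% of all tested genes called (22.3% higher and 26.4% lower). The sizes were 0.71 ± 0.14 for Dlk1 and 0.53 ± 0.10 for Plagl1, against -1.87 ± 0.13 for Peg3, -1.02 ± 0.14 for Meg3, -0.84 ± 0.15 for Igf2r and -0.67 ± 0.17 for Cdkn1c, with adjusted p from 2.15e-06 to 0.0079 in limma. A share of 6 in 10 is near that background. With 1 E13.5 Ctrl library, its spread was taken from the other groups.

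The same step in +1Runx1 cells gave 1 gene higher (28.6% of all genes) and 6 lower (30.8%; 59.4% called in all). Dlk1 rose by 0.62 ± 0.12. The genes that fell were Peg3 (-2.40 ± 0.10), Meg3 (-1.03 ± 0.12), Igf2r (-0.84 ± 0.12), Cdkn1c (-0.54 ± 0.14), Igf2 (-0.34 ± 0.09) and H19 (-0.32 ± 0.13). The fall of H19 had an adjusted p of 0.0479 in limma and lost the call in 7 of the 10 alternatives run (adjusted p from 0.0193 to 0.337). Leaving out E9.5 +1Runx1 replicate 1 ended the calls of Igf2 (-0.26), H19 (-0.17) and Cdkn1c (-0.45), and leaving out E13.5 +1Runx1 replicate 1 ended those of H19 (-0.23) and Cdkn1c (-0.36). Mest and Grb10 passed in neither comparison (Mest -0.01 ± 0.05 and -0.07 ± 0.04). After quantile normalization Mest turned to 0.44 and 0.30, both called higher. The summed level of 8 erythroid markers, most of it Hbb-y, was 45.1 to 92.2 RPKM at E9.5 and 450 to 1186 at E13.5. Its part in these differences was not tested.

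**Figure D2:**
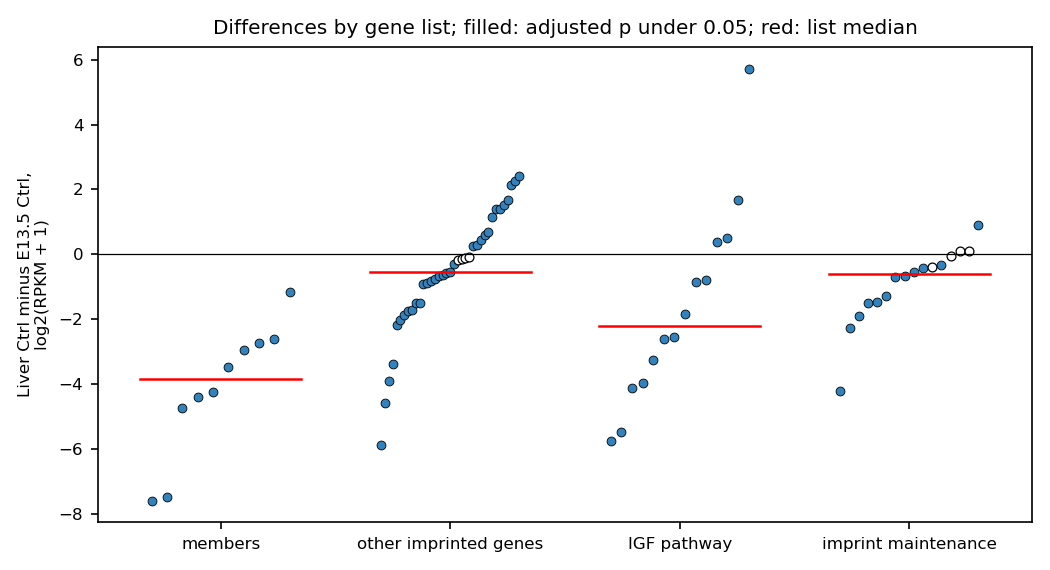
Difference between Liver Ctrl and E13.5 Ctrl in log2(RPKM + 1) for each tested gene of 4 lists (points, filled where adjusted p is under 0.05; red lines are list medians). All 10 members lie below 0, while the other imprinted genes, with a median of -0.55, lie on both sides.

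Other imprinted genes did not all fall with the 10. Of 58 listed, 37 were tested; from E13.5 Ctrl to Liver Ctrl 20 fell, 13 rose and 4 did not pass, with a median of -0.55. Over all tested genes 38.6% fell, 40.6% rose and 79.3% were called in all. The largest falls were in Nnat (-5.88 ± 0.19), a neuronal proteolipid gene, Ndn (-4.58 ± 0.10), which encodes the growth suppressor necdin, Slc38a4 (-3.90 ± 0.08) and Peg10 (-3.39 ± 0.26), a retrotransposon-derived gene. Kcnq1, a potassium channel gene beside Cdkn1c, rose by 2.42 ± 0.14, from 6.49 to 39.1 mean RPKM. Dcn, which encodes the matrix proteoglycan decorin, rose by 2.25 ± 0.37. Dcn is also a marker of mesenchymal cells.

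Of the IGF pathway around Igf2 and Igf2r, all 14 tested of 18 listed genes passed from E13.5 Ctrl to Liver Ctrl, 10 lower and 4 higher (median -2.20). Of all tested genes 79.3% passed there, 38.6% lower and 40.6% higher. The binding protein genes Igfbp3 (-5.77 ± 0.25, 261 to 3.82 RPKM) and Igfbp2 (-5.47 ± 0.18, 67.6 to 0.556 RPKM) fell. So did Igf2bp1 (-4.13 ± 0.23) and Igf2bp3 (-3.98 ± 0.07), whose products bind Igf2 mRNA, and Igf1 (-3.25 ± 0.13), the other ligand gene. Igfbp7, a secreted binding protein of vessels, rose by 5.73 ± 0.14, from 89.9 to 4825 RPKM.

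Among 16 tested genes for maintaining imprints, 11 fell and 1 rose in the same comparison, where 38.6% of all tested genes fell and 40.6% rose. The list median was -0.61, beside 0.02 for all tested genes. The 12 called in either direction were a share near the 79.3% of all tested genes. Uhrf1, which brings the maintenance methyltransferase to replicated DNA, fell by 4.21 ± 0.13. Zfp57 itself fell by 1.47 ± 0.12, from 8.40 to 2.39 mean RPKM. Trim28, the corepressor that ZFP57 recruits, fell by 1.92 ± 0.07, and Dnmt1, the maintenance methyltransferase, fell too (adjusted p = 3.80e-07 in limma).

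Adding 1 Runx1 copy at E9.5 changed none of the 10 at an adjusted p under 0.05 in limma, where 1.19% of all tested genes passed (0.861% higher and 0.327% lower). Limma-voom on recovered reads also called none. Unadjusted p fell under 0.05 for 1508 of 12546 genes and for 2 of the 10, Meg3 (-0.39 ± 0.12, 95% interval -0.65 to -0.13) and Plagl1 (-0.18 ± 0.08, -0.36 to -0.01). For Igf2 the difference was 0.02 with an interval of -0.18 to 0.22, and for H19 0.02 with -0.26 to 0.30.

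At E13.5, Plagl1 and Peg3 were lower with 1 added copy. Both comparisons with E13.5 Ctrl rest on the same single Ctrl library, which cannot be left out. Plagl1 fell by 0.79 ± 0.10 (adjusted p = 0.00169) and Peg3 by 0.52 ± 0.13 (adjusted p = 0.0296), both in limma. They make 2 of 10 lower, against 4.03% of all tested genes lower and 6.34% higher (10.4% called in all; 61.2% of those called were higher, 49.3% after quantile normalization and 46.9% in limma-voom). Without +1Runx1 replicate 1, Peg3 kept its direction (-0.35) but had an adjusted p of 0.065, and with only the 2 groups in the fit neither gene passed (Peg3 adjusted p = 0.343, 0.00475 to 0.343 over all alternatives; Plagl1 0.28, 0.000244 to 0.28).

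With 2 added copies, none of the 10 passed against the same Ctrl library in limma (0.271% of all tested genes did, 0.151% higher and 0.12% lower; 55.9% of calls were higher, 37.9% in limma-voom), and Plagl1, at -0.49 ± 0.10, had the only unadjusted p under 0.05 among the 10 (1642 of 12546 genes had one) and an adjusted p of 0.0863. Limma-voom called 1, Plagl1. Between the groups that carry Cre, Peg3 was higher with 2 copies than with 1 by 0.67 ± 0.10 (adjusted p = 0.00746 in limma), 31.4 and 31.2 against 17.0 and 21.9 RPKM. It was the only member called, against 2.17% of genes higher and 3.16% lower, 5.33% in all (40.7% of calls higher, 52.1% after quantile normalization and 55.3% in limma-voom). With only those groups in the fit the adjusted p was 0.302 (0.00136 to 0.302 over all alternatives). Runx1 itself measured 28.9 and 23.7 RPKM with 1 copy and 22.7 and 25.2 with 2, so its transcript level did not separate these groups.

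The E13.5 Ctrl library held summed erythroid markers of 1148 RPKM, against 450 and 557 in +1Runx1 and 568 and 1186 in +2Runx1. Macrophage markers summed to 21.2 RPKM in it, against 10.6 to 11.5 in +1Runx1 and at most 17.3 in +2Runx1. Mesenchymal markers summed to 145 RPKM, against 98.8 to 115 and 107 to 151. The 10 hepatocyte markers summed to 278 RPKM, against 206 to 207 and 199 to 287. Trf made up much of these sums, averaging 90.7, 139 and 116 RPKM in the 3 groups, while Afp averaged 78.3, 17.4 and 41.1. Against Ctrl, the median log2 difference of the 9 tested was -1.75 in +1Runx1 and -0.89 in +2Runx1. Trf (0.61 and 0.35) and Ttr (1.71 and 1.23) were higher in both groups, and the other tested markers were lower. Their part in the Plagl1 and Peg3 differences was not tested.

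In adult liver, Cdkn1c was lower by 1.11 ± 0.14 with 2 added copies (a mean of 27.1 RPKM in Ctrl, 2.26 times that in +2Runx1; n = 2 each; adjusted p = 0.00018 in limma). It was 1 of 10 lower, where 8.14% of all tested genes were lower, 17.1% higher and 25.3% called in all (67.8% of these higher, 54.5% after quantile normalization and 56.6% in limma-voom). Cdkn1c passed in each of the 10 alternatives run, with differences from -1.21 to -1.08. Endothelial marker sums were 4843 and 4915 RPKM in Ctrl and 4273 and 4473 in +2Runx1, and hepatocyte sums were 130 to 141 and 130 to 131. Erythroid sums were 10.3 to 11.2 in Ctrl and 5.70 to 6.05 in +2Runx1. Most of them was Alas2 (means of 10.1 and 5.13), while Hbb-y averaged 0.42 and 0.67. Neural sums were 6.09 to 6.38 and 10.3 to 10.8, most of them Nes (5.69 and 9.24). Nes also averaged 29.8 to 32.6 RPKM in the embryonic groups, so these sums do not show a neural share. The part of all these markers in the Cdkn1c difference was not tested.

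The other 9 members did not pass in liver. Peg3 had 82 and 79 reads in Ctrl and 44 and 47 in +2Runx1, a difference of -0.19 ± 0.10 that became -0.65 (adjusted p = 0.00256 in limma) with a pseudocount of 0.1. For Mest the difference was -0.08 with an interval of -0.17 to 0.01, and for Grb10 -0.05 with -0.18 to 0.07. Of the imprint maintenance list, Dnmt1 (0.83 ± 0.09), Trim28 (0.54 ± 0.05) and Uhrf1 (2.11 to 12.3 mean RPKM) rose in the same comparison, 3 higher and 1 lower of 16 tested. Of 37 other imprinted genes 5 rose and 4 fell, Dcn falling by 1.12 ± 0.30 and Ppp1r9a, a neurabin gene, rising by 0.58 ± 0.09. Both shares are near the 25.3% of all tested genes called there.

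**Figure D3:**
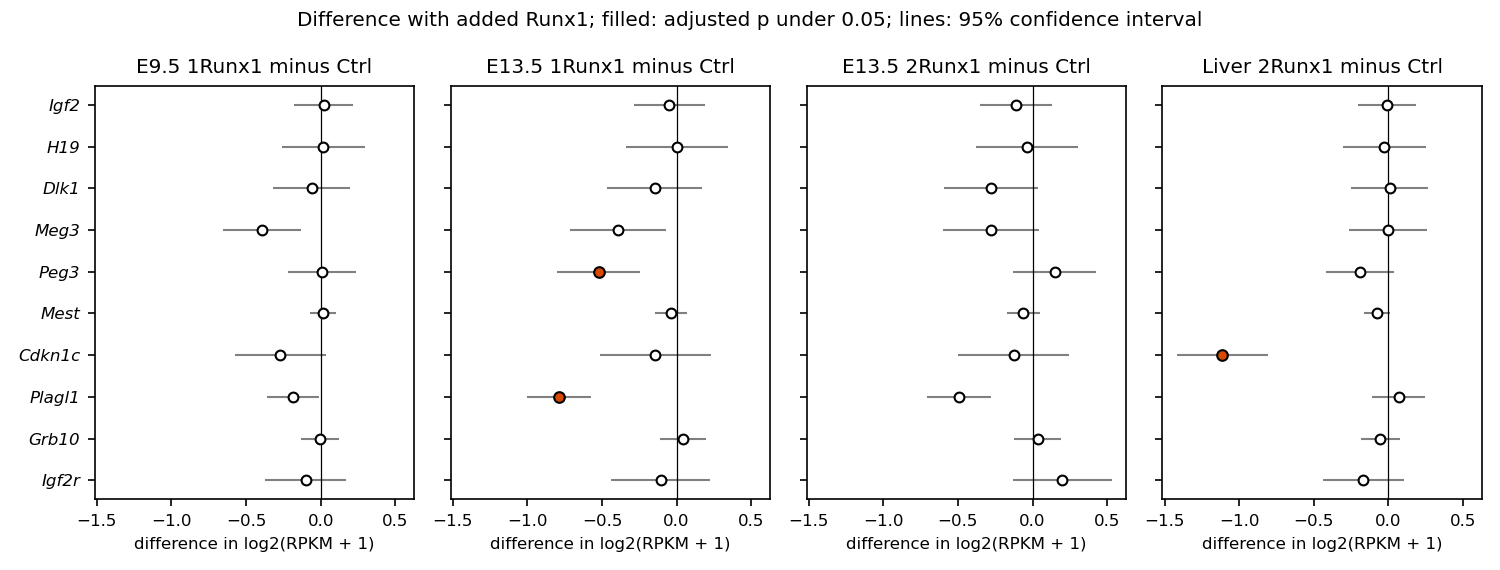
Difference in log2(RPKM + 1) between libraries with and without added Runx1 for the 10 genes, with 95% confidence intervals (lines; filled points have an adjusted p under 0.05). Plagl1 and Peg3 at E13.5 with 1 copy and Cdkn1c in liver are the filled points.

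In the main fit, the stages were called different in these responses for 2 members. The 1-copy difference of Plagl1 was lower at E13.5 than at E9.5 by 0.60 ± 0.13 (interaction in limma, adjusted p = 0.0395; 1.1% of all genes lower and 1.16% higher, 2.26% in all; 51.4% of calls higher, 38.5% in limma-voom). The 2-copy difference of Cdkn1c was lower in liver than at E13.5 by 0.99 ± 0.22 (adjusted p = 0.0158; 2.89% of all genes lower, 11.1% in all; 73.9% of calls higher, 63.9% after quantile normalization). That of Plagl1 was higher in liver by 0.56 ± 0.13 (adjusted p = 0.0174; 8.2% of all genes higher). All 3 use the single E13.5 Ctrl library. Of 12 alternatives, 7 ended the call of the 1-copy Plagl1 interaction. The 2-copy interactions lost theirs in 3 of 12 for Cdkn1c and 2 of 12 for Plagl1.

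ATAC-seq gave 1 peak list per group with both replicates combined, so presence in a list has no replicate check. A promoter peak here lies within 1 kb of an annotated start. All 10 genes had one in each of the 5 embryonic lists, where 66%, 65.8%, 65.2%, 65.5% and 64.3% of 18652 genes did (E9.5 Ctrl and +1Runx1, then E13.5 Ctrl, +1Runx1 and +2Runx1). In both liver lists 6 of 10 had one, against 50.6% of genes, and Igf2, H19, Dlk1 and Meg3 had none. Of 11756 genes with a promoter peak in all 5 embryonic lists, 18.3% had none in either liver list. The liver lists were also shorter, 39019 and 39469 peaks against 80857 to 100268. With every list cut to its 39019 strongest peaks, 9 or 10 members kept a promoter peak in the embryonic lists and 6 in the liver lists.

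Within 10 kb of the 10 genes lay 78 peaks in E9.5 Ctrl, 64 in E9.5 +1Runx1, 75 in E13.5 Ctrl, 85 in E13.5 +1Runx1 and 66 in E13.5 +2Runx1, and 21 and 20 in the liver lists. With each list at its 39019 strongest peaks, the embryonic counts were 28, 26, 31, 30 and 37 and the liver counts 21 and 20. In the full lists the mean per gene over 25036 genes also fell. It was 3.98, 3.88, 3.9, 4.03 and 3.34 in the embryonic lists and 1.69 and 1.64 in liver. Merged across the full lists the peaks near the members formed 110 sites, 13 of them in all 7 lists. Grb10 and Igf2r, the longest members, held 26 and 23 of the 110. Of 108 sites with an embryonic peak, 89 (82.4%) had none in liver, against 74.8% of such sites over the genome. Only 2 sites were found in liver alone, within Grb10 and Igf2r.

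Igf2 had 9 sites and none in a liver list. Positions are in kb from the first start, negative upstream. The Igf2 site at -9.01 kb (chr7:142675622-142675946) had fold enrichments of 7.38 to 12.2 in the embryonic lists. Fold enrichments are the authors' peak scores and describe each list only. H19 kept 1 of its 10 sites in Liver Ctrl, at -2.19 kb (chr7:142580157-142580810), with 5.43 there and 5.37 to 6.75 in the embryonic lists. A further site at -3.66 kb (chr7:142581702-142582101) was in the 5 embryonic lists only. The imprinting control region of this domain is known to lie upstream of H19.

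Dlk1 and Meg3 had 4 sites each, all embryonic. The Dlk1 promoter site (chr12:109453011-109453836) scored 7.91 to 11.5 and the Meg3 promoter site (chr12:109540630-109541236) 7.64 to 11.3. The Meg3 site covers the printed promoter, and the Dlk1 site begins downstream of its printed one. Their RNA differed in direction between E9.5 and E13.5, while both promoter sites were present in all 5 embryonic lists.

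Cdkn1c kept its promoter site (chr7:143460353-143461536) in all 7 lists, at 10.4 to 13.1 in embryonic lists, 9.88 in Liver Ctrl and 7.65 in Liver +2Runx1. A site at -9.08 kb (chr7:143469847-143470240) was also in all 7, at 10.1 to 13.9 in embryonic lists and 7.10 and 7.91 in liver. One at -5.42 kb was in the embryonic lists and Liver +2Runx1, and not in Liver Ctrl. The fall of Cdkn1c RNA in liver with added Runx1 thus went with no lost site near the gene.

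Peg3 shares its start region with Usp29, which runs the other way. The site at that start was in embryonic lists only, while a site at 0.834 kb (chr7:6729271-6729835) scored 3.53 to 4.13 in embryonic lists and 12.1 and 12.7 in liver. The largest fold of any site, 27.3 to 33.4 in embryonic lists, was 33.9 kb from the Peg3 start at the start of Zim1 (chr7:6696181-6696848), and it was 5.42 and 6.84 in liver. Zim1 averaged at most 0.726 RPKM in any group.

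Plagl1 kept 1 of 14 sites in liver, its promoter (chr10:13090343-13091253), with at most 21.2 in embryonic lists and 12.9 and 14.0 in liver. Mest kept 2 of 10, one of them at the start printed above (chr6:30737783-30738375), and no list held a peak at its most distal start. Grb10 kept 4 of 26, among them its first start. Igf2r kept 5 of 23, including its own start and the start of Airn inside it (chr17:12741135-12741826), which was in all 7 lists at 8.56 to 13.2. Plagl1 RNA in E13.5 +1Runx1 was lower than in Ctrl while its promoter site was in both lists.

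Of the 110 sites, 10 had a higher fold than Ctrl in all 3 embryonic comparisons with added Runx1 and 14 a lower one, counting no peak as 0. Both E13.5 comparisons share the same Ctrl list. The share of sites over the genome in either order was not counted, so these counts cannot be set against a background. At one of the 10, within Grb10 at 97.6 kb (chr11:11939678-11939967), the fold was 4.70 in E9.5 Ctrl and 18.2 in E9.5 +1Runx1. At E13.5 it was absent in Ctrl, 5.26 with 1 copy and 6.24 with 2 copies, and it was in neither liver list. A site of Grb10 at 88.9 kb went from no peak to 6.20 at E9.5, and had 3.01 in E13.5 Ctrl, 5.51 with 1 copy and 6.10 with 2. A site of Plagl1 at 41.6 kb went from 4.43 to 6.20 at E9.5, and had 4.16, 7.20 and 9.62 at E13.5. These sites were singled out after their values were seen, and with 1 list per group no difference was tested. Grb10 RNA measured 226 ± 8.23 and 226 ± 0.61 RPKM (SD, n = 2) in E9.5 Ctrl and +1Runx1.

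**Figure D4:**
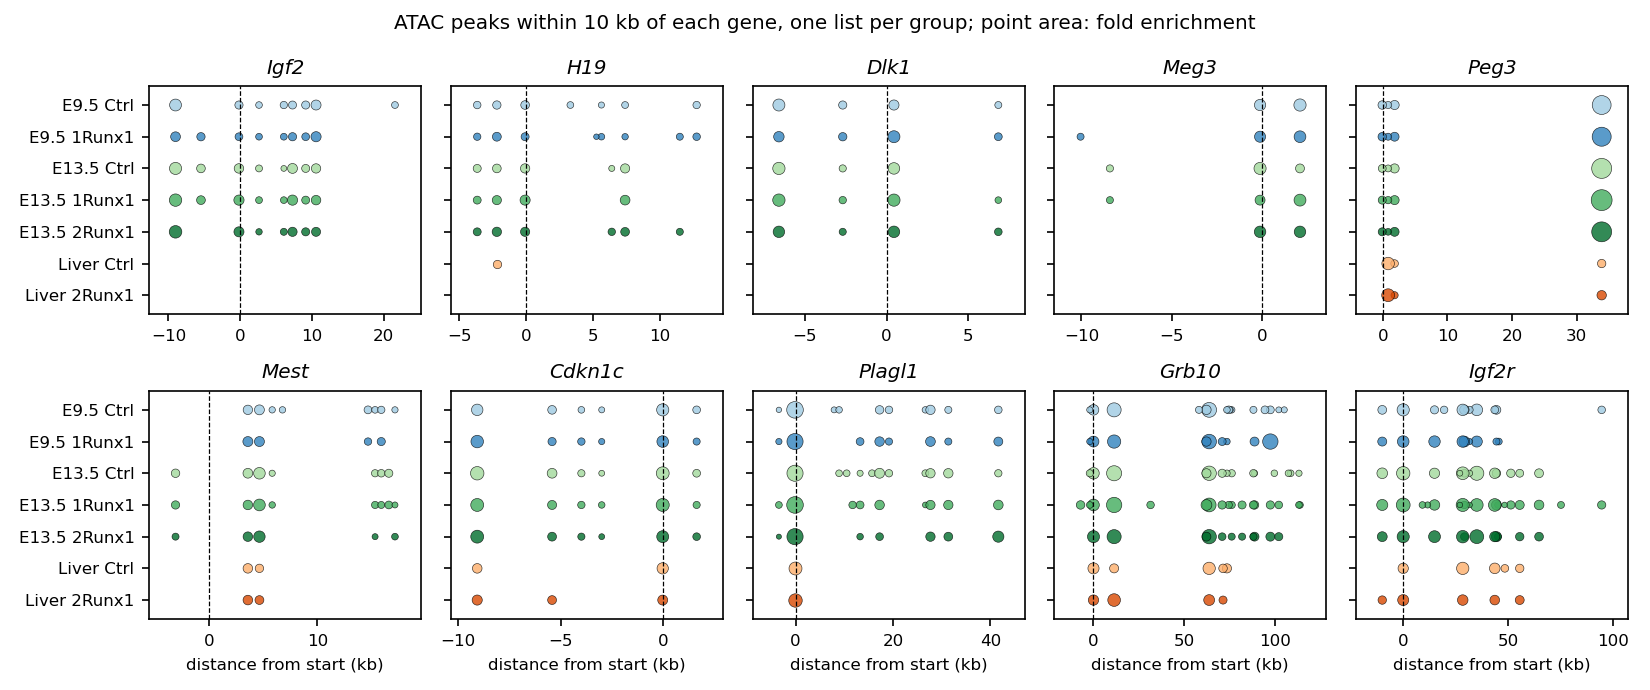
ATAC sites within 10 kb of each gene by distance from its first annotated start (kb, positive into the gene) for 7 peak lists; point area is proportional to the authors' fold enrichment. Igf2, Dlk1 and Meg3 have no point in the liver lists and H19 has 1.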

How the data were processed

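RNA-seq was measured in 13 libraries and ATAC-seq in 14 (7 groups each). RPKM values were deposited by the authors for 25239 genes. The submitters' processing notes name STAR 2.7.3a and featureCounts from Subread 2.0.0 for the series, and Bowtie2 2.3.5.1 and MACS2 2.1.4 (builds mm10, GRCm38), without roles. ATAC peak lists were deposited by the authors, 1 per group, with a fold enrichment ratio and a −log10 q for each peak.

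From these, log2(RPKM + 1) was tested with limma 3.58.1 (R 4.3.3) on 12546 genes with RPKM of at least 1 in 2 libraries, 7 group means, Benjamini-Hochberg adjustment and a call at adjusted p under 0.05. There were 6 residual and 4.3 prior degrees of freedom. Whole reads were recovered from the RPKM for 100% of 20720 genes above 0 (tolerance 0.001 reads), totalling 37754246 to 44540403 per library, for limma-voom (with TMM scaling factors) and for counts behind low values. The limma fit and the read recovery were tested on simulated data. Peaks were assigned within 10 kb of a gene and 1 kb of a start. Alternatives were another pseudocount (0.1), no filter, quantile normalization, limma-voom, only the groups compared, a replicate block and leaving out libraries.

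All 10 members are named, with at most 6 called genes of largest change from each further list and the 3 genes most alike. Members and lists were chosen with earlier results of these data known. The strand of Cdkn1c and the role notes are background knowledge, not from the files. H3K4me1 lists enter no comparison, since labels of an input and a ChIP library appear exchanged.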

Additional observations from a re-analysis of the deposited data

Results flagged for a closer look

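The Runx1 difference was called stage-dependent for Plagl1 and Cdkn1c in interaction tests over all genes in the main fit. For Plagl1 the 1-copy difference was -0.18 at E9.5 and -0.79 at E13.5, an interaction of -0.60 (limma, adjusted p = 0.0395), and Plagl1 was lower in 2 of 2 +1Runx1 libraries at both stages. It had an adjusted p of 0.0733 with no filter and 0.0617 with a pseudocount of 0.1. For Plagl1 the 2-copy difference was -0.49 at E13.5 and 0.07 in liver, an interaction of 0.56 (adjusted p = 0.0174 in limma, 0.061 with only the groups compared). For Cdkn1c the 2-copy difference was -0.13 at E13.5 and -1.11 in liver, an interaction of -0.99 (adjusted p = 0.0158 in limma, 0.0582 with no filter). All 3 rest on the single E13.5 Ctrl library, in which Plagl1 had its highest level, 170 RPKM. Over 12 alternatives each, the 1-copy Plagl1 call was lost in 7, the 2-copy Plagl1 call in 2 and the Cdkn1c call in 3.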

How the results depend on the processing

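All 10 members stayed lower in each of the 3 liver comparisons under every alternative, in 280 of 280 values. Igf2, H19, Dlk1, Meg3 and Peg3 had passed the main filter through embryonic libraries only, which favours that direction. Over the 120 member comparisons, 695 of 720 values under other settings kept their direction and side of the threshold, as did 424 of 440 with a library left out. Mest between E9.5 and E13.5 turned with quantile normalization, to 0.4441 in Ctrl and 0.2956 in +1Runx1. With no filter the members called were 1 of 10 for E13.5 +1Runx1 against Ctrl, 0 for the 1-copy interaction and 1 for the 2-copy interaction. With only the groups compared they were 0, 0 (E13.5 +2Runx1 against +1Runx1), 2 (liver) and 1 (2-copy interaction), and with a pseudocount of 0.1 they were 2 in liver and 0 for the 1-copy interaction. Limma-voom gave 1 for E13.5 +2Runx1 against Ctrl and 2 for +2Runx1 against +1Runx1, where quantile normalization also gave 2. The cause was not tested. Leaving out 1 library gave 0 called for E9.5, 1 to 2 for E13.5 +1Runx1 against Ctrl, 0 to 1 for +2Runx1 against Ctrl, 1 for +2Runx1 against +1Runx1, 1 for liver, 4 to 7 for E13.5 against E9.5 +1Runx1, 0 to 2 for either interaction, 6 for the Ctrl stages and 10 for each liver comparison. The E13.5 Ctrl library cannot be left out. With a replicate block the counts were 0, 2, 0, 1 and 1 for the Runx1 comparisons, 6 and 6 between embryonic stages, 10 in liver comparisons and 1 and 2 for the interactions, and only H19 lost a call (E13.5 against E9.5 +1Runx1, adjusted p = 0.0562). The labels do not say whether same-numbered libraries belong together. Of 15 correlations of their deviations, 1 was over 0.1 (-0.061 to 0.11). With at most 2 libraries per group, these values cannot tell whether a litter or batch was shared. At a −log10 q of at least 10, peaks within 10 kb were 45 in E9.5 Ctrl, 48, 50 and 43 at E13.5, and 9 and 8 in liver. With 39019 peaks per list they were 28, 26, 31, 30 and 37 in the embryonic lists.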
